A study of Mus musculus with 16 samples.

Results

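Opposite-strand transcripts are RNAs named after a gene on the other DNA strand, with the ending os added to the symbol of that gene. They were taken here as every gene of the deposited table whose symbol, once os and any number after it are removed, is itself a symbol of the table. The rule found 39 transcripts among 14504 genes, each with 1 partner. The annotation placed all 39 on the strand opposite to the partner, and all 39 partners are protein coding. By class, 32 of the transcripts are long noncoding RNAs, 5 code for proteins of their own (Brd3os, Ccpg1os, Cebpzos, Slc7a6os and Wdr83os), 1 (Abhd11os) is a transcribed pseudogene and 1 (Cpeb1os1) awaits experimental evidence. A further 25 symbols end in os without a partner in the table, among them Fos and Nos1, whose names only happen to end that way, and were not members.

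Transcription from a promoter often runs both ways, and many long noncoding RNAs start beside a coding gene on the other strand. Such a transcript can share its promoter with the coding gene, overlap its body, or run towards its end. Some antisense RNAs act on their neighbor, and the RNA antisense to Uchl1 is known for raising translation of the Uchl1 protein, while for most no function is known.

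The tissue was the DRN (dorsal raphe nucleus), the main source of serotonin fibers to the forebrain, of adult male C57BL/6 mice. Control mice without social stress received saline (3 libraries) or dexamethasone (DEX), a synthetic glucocorticoid, at 2 mg/kg (3 libraries). Mice after 30 days of chronic social defeat fell by their behavior into a passive coping phenotype (PS; 2 saline and 3 DEX libraries) and an active one (AS; 3 saline and 2 DEX libraries), and all tissue was taken 6 h after injection. Controls had been singly housed before the experiment, and the authors had left out DEX libraries of stressed mice with low Tph2. The methods of the paper count more DRN libraries than the 16 here even after that step, and give no reason for the difference. The 16 libraries are named by group and label number, which pair nothing across groups. Summed over the 14504 genes of the table, the whole reads behind the values numbered 38207157 to 62447298 per library. This sum leaves out reads outside those genes and is not the sequencing depth. All 10 markers of serotonin neurons on a list were in the table, and Tph2, which makes serotonin, lay between 91760 and 182200 normalized counts. All 10 glucocorticoid targets on a list rose with DEX (limma, adjusted p under 0.1). Their mean log2 score was 0.61 to 1.03 in the 8 DEX libraries against -1.06 to -0.63 in the 8 saline libraries. That list was chosen with earlier results of these data known, so it is no independent check of the labels. The libraries AS-saline-40 and control-saline-104 stood apart: they had 228 and 248 genes at 0 reads, against 56 to 171 in the others, and the lowest weights in a fit that weighted libraries (0.184 and 0.319). Where the correlation of a named pair depended on them, its value without them is also given.

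The pairs differed in how the genes lie to each other. In 27 pairs the genes stood head to head. In 11 of these the genes did not overlap, and transcription ran apart from neighboring starts. In the other 16 the genes overlapped at their starts, so that transcription from the annotated starts first ran through the overlap. In 8 pairs they stood tail to tail, 5 of them overlapping, and in 4 pairs (Arhgap27os2, Chn1os1, Grin1os and Rab26os) the transcript lay inside the gene span of its partner. Exons of transcript and partner overlapped in 23 pairs. The libraries were strand specific, but the sources used here do not give the strand setting of the counting, so in those 23 pairs reads of transcript and partner cannot be told apart with certainty. Ino80dos also lies on 489 bases of Ndufs1 exons and Uckl1os on 263 bases of Zfp512b exons. The overlap reached 83.8% of the exon length for Chn1os1, 75.9% for Arhgap27os2 and 73.1% for Zfhx2os.

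RefSeq promoter windows, from 250 bases before to 50 after a start on GRCm38.p6, were found for both genes of 25 pairs, and in 11 of these the windows shared bases. Of those 11 pairs, 4 are printed as examples of windows that share 157 to 227 of 300 bases while the correlation over libraries differed (r = 0.58, 0.52, 0.33 and -0.45). Each is written 5′ to 3′ in the direction of the transcript, and capitals mark the bases that also lie in the window of the partner. For Phf2os1, chr13:48870705-48871004 on the plus strand, 169 bases were shared. For Lhx1os, chr11:84525410-84525709 on the plus strand, 225 were shared. For Ccpg1os, chr9:72985327-72985626 on the minus strand, 227 were shared, and for B9d1os, chr11:61505037-61505336 on the minus strand, 157.
Phf2os1: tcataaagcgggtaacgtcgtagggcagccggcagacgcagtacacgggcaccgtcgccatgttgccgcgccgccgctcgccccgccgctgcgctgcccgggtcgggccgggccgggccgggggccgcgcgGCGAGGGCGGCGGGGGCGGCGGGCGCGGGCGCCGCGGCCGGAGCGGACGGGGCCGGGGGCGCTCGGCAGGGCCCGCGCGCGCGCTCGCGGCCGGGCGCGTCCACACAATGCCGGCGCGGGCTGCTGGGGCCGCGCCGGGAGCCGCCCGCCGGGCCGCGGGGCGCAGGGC
Lhx1os: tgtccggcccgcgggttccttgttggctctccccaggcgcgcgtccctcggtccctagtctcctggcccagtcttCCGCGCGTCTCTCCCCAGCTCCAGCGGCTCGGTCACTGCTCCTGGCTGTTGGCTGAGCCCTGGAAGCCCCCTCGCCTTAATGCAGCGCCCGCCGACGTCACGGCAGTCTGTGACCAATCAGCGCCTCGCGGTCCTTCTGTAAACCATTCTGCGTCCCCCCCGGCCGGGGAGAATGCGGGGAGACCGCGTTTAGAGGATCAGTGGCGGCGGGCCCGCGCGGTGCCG
Ccpg1os: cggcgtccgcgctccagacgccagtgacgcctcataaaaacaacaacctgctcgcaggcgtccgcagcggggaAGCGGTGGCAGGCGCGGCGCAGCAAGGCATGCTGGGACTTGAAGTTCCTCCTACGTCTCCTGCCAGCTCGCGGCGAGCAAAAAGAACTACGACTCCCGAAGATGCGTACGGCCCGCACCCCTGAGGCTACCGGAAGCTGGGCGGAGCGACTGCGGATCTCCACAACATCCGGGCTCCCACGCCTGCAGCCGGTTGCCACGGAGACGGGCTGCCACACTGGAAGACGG
B9d1os: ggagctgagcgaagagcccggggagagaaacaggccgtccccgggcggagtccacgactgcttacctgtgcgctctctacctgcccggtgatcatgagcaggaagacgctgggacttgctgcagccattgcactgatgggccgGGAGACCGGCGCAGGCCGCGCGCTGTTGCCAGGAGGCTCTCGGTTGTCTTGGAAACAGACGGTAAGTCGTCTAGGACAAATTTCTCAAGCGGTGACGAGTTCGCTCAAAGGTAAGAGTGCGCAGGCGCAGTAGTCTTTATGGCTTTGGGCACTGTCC
The CpG share of dinucleotides was 20.7% in the Phf2os1 window, 11.04% in those of Lhx1os and Ccpg1os and 7.69% in that of B9d1os, against a median of 6.69% over all 13273 windows of genes in the table. The median was 7.69% over the windows of 28 transcripts and 8.36% over those of 35 partners, 1 window each, the one nearest to the annotated gene start. The core of the glucocorticoid receptor element, ACANNNTGT, searched on both strands, was in 0 of the 28 transcript windows and 1 of the 35 partner windows, and in 4.26% of all windows. The hexamer AGAACA, which can overlap that core, was in 1 and 3, against 12.2% of all. Those 3 partner windows, of Brd3, Ttc39a and Zfp652, belong to starts 32264, 9024 and 36394 bases from the annotated gene start. The cAMP response element TGACGTCA was in 0 and 3 (2.99% of all), and the TATA box TATAAA in 1 and 3 (7.02% of all). The window of Zfp652 was among the 3 partner windows with the TATA box. None of the 4 motifs was in the 4 printed windows.

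Most opposite-strand transcripts were scarcer than their partners. Values are normalized counts (reads per gene scaled by the size factor of the library), and levels of different genes are compared only per kb of exon. Mean counts of the transcripts ran from 22.7 (B9d1os) to 2233 (Rab10os), with a median of 143, and 12 of the 39 had a mean under 100. The median transcript had 74.7 normalized counts per kb and the median partner 356, which placed them at the 17.4th and 59.1st percentile of all genes by level per kb. The ratio of the level per kb to that of the partner had a median of 40.9% over the 39 pairs. Transcripts also varied more between libraries, with a median coefficient of variation of 24.8% against 12.9% for partners, and 5 transcripts but 0 partners had a library with under 10 reads.

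**Figure D1:**
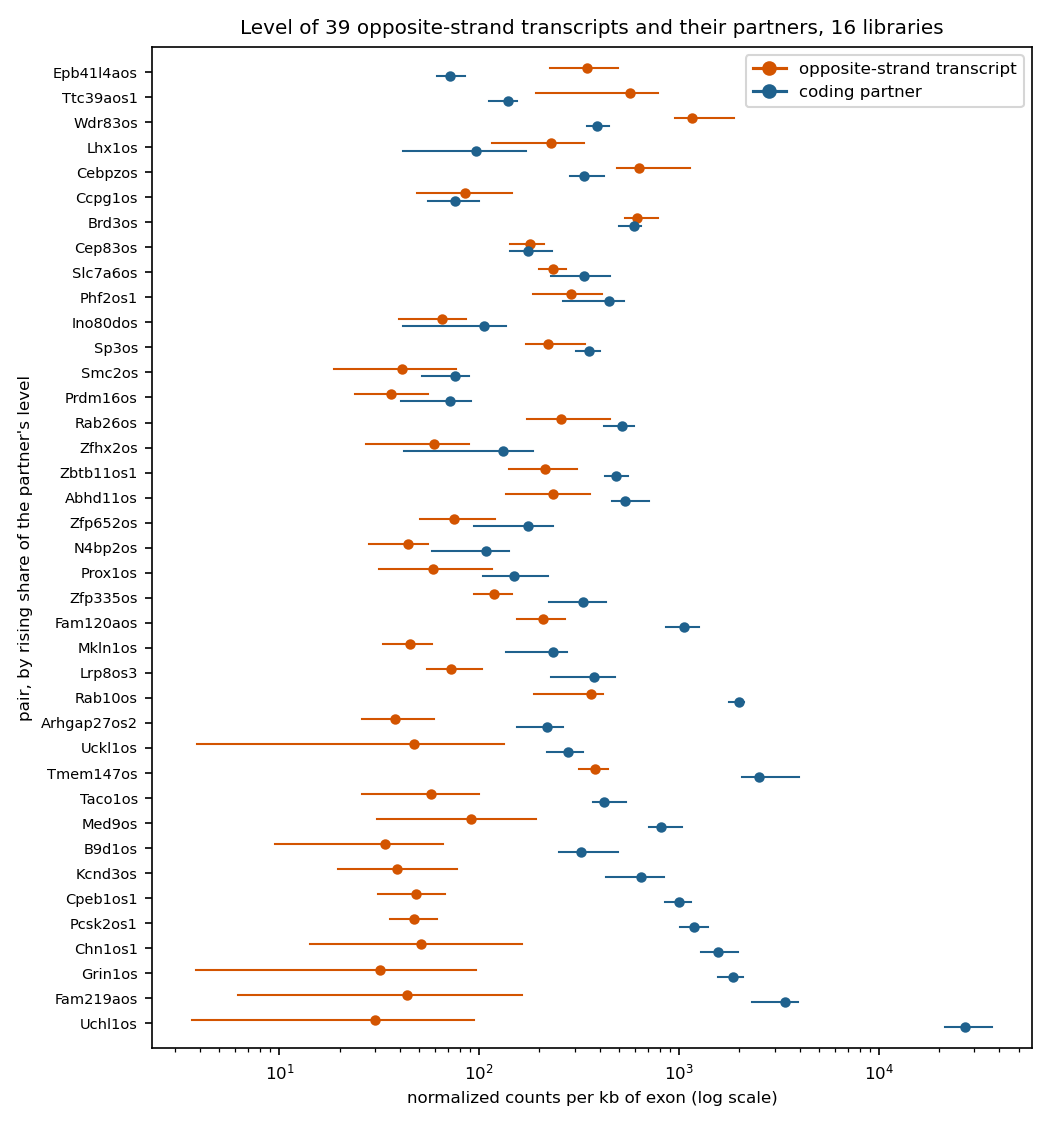
Level of each opposite-strand transcript (orange) and its partner (blue) in normalized counts per kb of exon on a log axis, ordered by the ratio of transcript to partner; points are means over 16 libraries and lines run from the lowest to the highest library. Uchl1os stands lowest at 0.112% of its partner, and 8 transcripts have a mean per kb above that of the partner.

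In 8 pairs the transcript had the higher mean per kb, in 5 of them in all 16 libraries: Epb41l4aos (487% of Epb41l4a), Ttc39aos1 (406% of Ttc39a), Wdr83os (299% of Wdr83), Lhx1os (239% of Lhx1) and Cebpzos (188% of Cebpz). Ccpg1os, Brd3os and Cep83os lay near their partners, at 113%, 103% and 103%, and were above them in 11, 6 and 9 libraries. The lowest share was that of Uchl1os, which reached 0.112% of the level per kb of Uchl1, a ubiquitin hydrolase abundant in neurons. Fam219aos reached 1.27% of Fam219a and Grin1os 1.71% of Grin1, the obligatory subunit of NMDA receptors, and Chn1os1 3.25% of Chn1, a GTPase-activating protein for Rac. Pcsk2os1 (3.95%), beside a prohormone convertase gene, and Cpeb1os1 (4.86%), beside a regulator of translation, came next.

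The 5 transcripts with the highest level per kb were Wdr83os, Cebpzos, Brd3os, Ttc39aos1 and Tmem147os. Wdr83os (chr8:85080740-85082339, plus strand), which codes for a small endoplasmic reticulum protein, had 1163 normalized counts per kb and 1199 ± 216 normalized counts (SD, n = 16). Its highest library was control-saline-104 with 1934, and the others lay between 985 and 1306. Cebpzos (chr17:78916500-78920306, plus strand) had 713 ± 177 normalized counts and Brd3os (chr2:27442324-27444221, plus strand) 1163 ± 130. Ttc39aos1 (chr4:109403794-109406155, minus strand), a long noncoding RNA, had 486 ± 140. It was lowest in control-saline-114 (164) and AS-saline-40 (223) and between 348 and 670 elsewhere. Tmem147os (chr7:30729579-30745929, plus strand), whose start lies 39 bases from that of Tmem147, a gene for an endoplasmic reticulum membrane protein, had 535 ± 54.2.

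For these 5, the genes with the most similar pattern over the 16 libraries were not the partners. Cebpzos was most like Psma3 (r = 0.98), Mtch2 (r = 0.97) and Rpl22l1 (r = 0.96), which code for a proteasome subunit, a mitochondrial outer membrane protein and a ribosomal protein paralog. Ttc39aos1 was most like Mocs1 (r = 0.98), Dvl3 (r = 0.95) and Fyco1 (r = 0.95). Wdr83os followed Ptov1 and Hyal2 at r = 0.92, and Brd3os followed Slc39a1 (r = 0.90), Bop1 (r = 0.89) and Usf2 (r = 0.89). Tmem147os had weaker matches, with Gm45632 first at r = 0.80. These correlations are descriptions over libraries that differ in depth and in levels of cell type markers. The part of such differences in the correlations was not tested.

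Each transcript was next compared with its partner over the 16 libraries, by Pearson r of log2(normalized count + 1). The 39 values ran from -0.56 to 0.89 with a median of 0.07, and 25 of them (64.1%) were positive. Over 2717 other pairs of genes in the table on opposite strands, overlapping or within 1000 bases, the median was 0.14 and 61.5% were positive, and over the 39 transcripts with every gene the median was 0.00. Values above 0.5 occurred in 5 of the 39 pairs (12.8%), against 20.2% of the other neighbors. Over the transcripts with every gene, 8.41% of the 565617 values were above 0.5 and 46340 were below -0.5. Below -0.5 lay 1 of the 39 pairs and 235 of the 2717 other pairs. The partner was among the 5% of genes most correlated with the transcript in 3 pairs. In a two-sided permutation test with 100000 resamples, unadjusted, 5 pairs had a positive and 1 pair a negative correlation at p under 0.05 among the 39 tested. The test shuffled values over all 16 libraries without regard to group. How many other genes would pass it with each transcript was not tested.

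**Figure D2:**
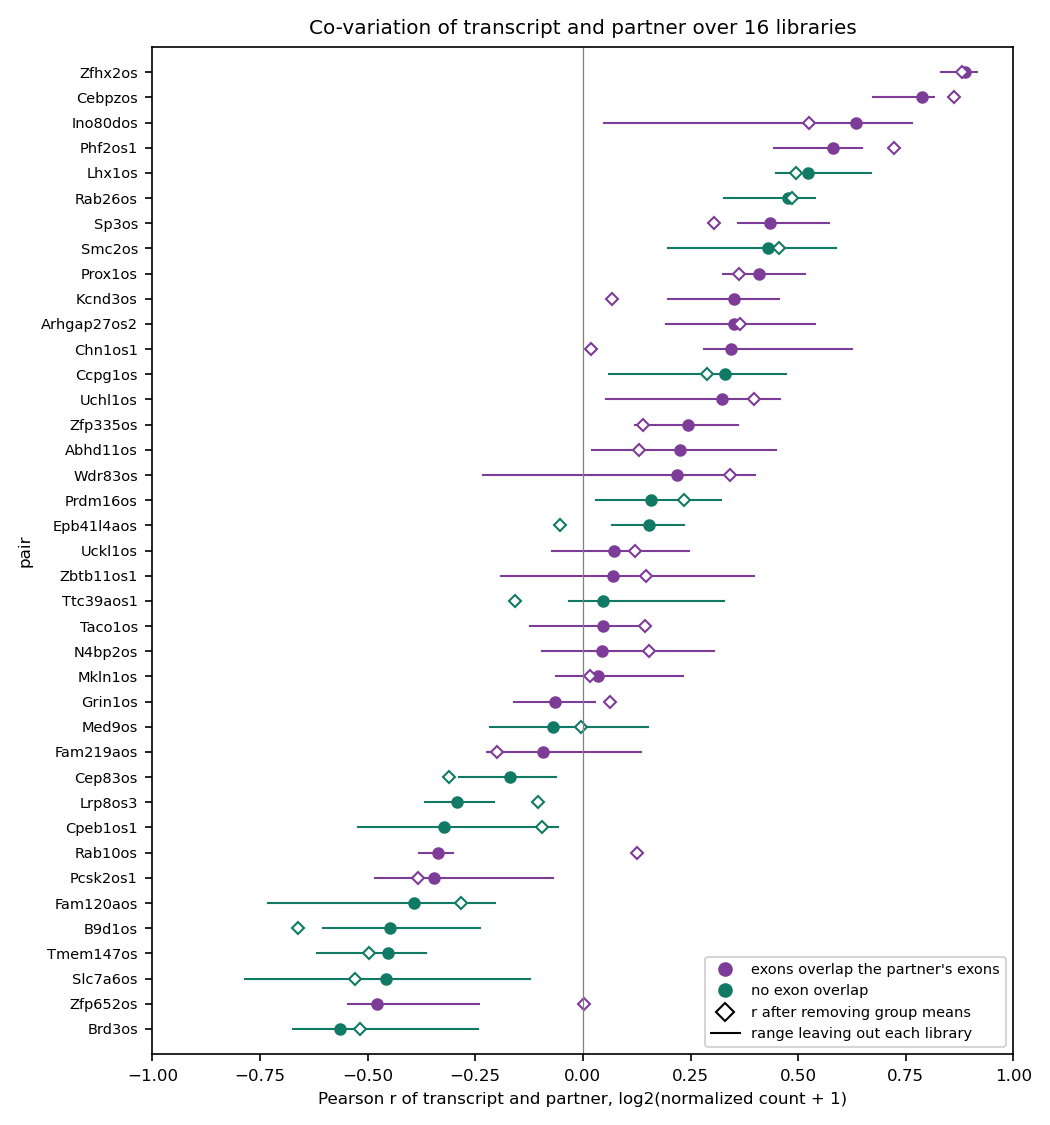
Pearson r of transcript and partner on log2(normalized count + 1) for the 39 pairs (filled points, n = 16 libraries), with the range when each library is left out in turn (lines) and r after the means of the 6 groups are removed (open diamonds). Pairs run from -0.56 for Brd3os to 0.89 for Zfhx2os, and 18 of the 23 pairs with overlapping exons (purple) lie above 0.

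Of the 23 pairs whose exons overlap, 18 had a positive r (median 0.23), and of the 16 pairs without exon overlap 7 did (median -0.12). The part of shared exons in this was not tested. Head to head pairs had a median of 0.07 (27 pairs) and tail to tail pairs of 0.03 (8 pairs). Pairs whose promoter windows shared bases had a median of 0.05 (11 pairs), and the 14 pairs without shared bases 0.06.

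Zfhx2os had the highest correlation. This long noncoding RNA (chr14:55053869-55075873, plus strand) runs tail to tail into Zfhx2, a zinc finger homeobox transcription factor gene, and 73.1% of its exon length lies on exons of Zfhx2. Zfhx2os had 327, 121 and 196 normalized counts in control-saline-102, control-saline-104 and control-saline-114, 260, 205 and 268 in control DEX, 393 and 270 in PS saline, 273, 301 and 335 in PS DEX, 388, 226 and 121.7 in AS saline and 276 and 263 in AS DEX. Zfhx2 itself had its lowest values in the same 3 libraries, with 984 in control-saline-104, 1213 in control-saline-114 and 766 in AS-saline-40, against 1760 to 3362 elsewhere. Pearson r was 0.89 (permutation p = 3e-05) and Spearman rho 0.71 (permutation p = 0.0027). Without AS-saline-40 and control-saline-104, which were also farthest from the median of Zfhx2, r was 0.66, and after group means were removed it was 0.88. Of all genes, 90 were more correlated with Zfhx2os than Zfhx2 was.

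Cebpzos came second. It lies tail to tail with Cebpz, which codes for a CCAAT-binding nucleolar protein, and 15.1% of its exon length is on Cebpz exons. Cebpzos stood at 1279 in AS-saline-40, 911 in control-saline-114 and 860 in control-DEX-116, and between 555 and 729 in the other libraries. Cebpz was highest in AS-saline-40 (1949) and control-DEX-116 (1855). Pearson r was 0.79 (permutation p = 0.00036) and Spearman rho was 0.73 (permutation p = 0.0019). The r was 0.67 without AS-saline-40 and 0.69 without AS-saline-40 and control-saline-104. It was 0.53 without the 2 libraries farthest from the median of Cebpz and 0.86 after group means were removed. With Cebpzos, 6.52% of all genes had a higher r than Cebpz.

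Lhx1os (chr11:84525660-84535831, plus strand) starts 125 bases from Lhx1, a LIM homeobox transcription factor gene, and the exons do not overlap. Lhx1os ran from 81.2 (control-DEX-116) to 233 (PS-DEX-6) with a median of 158, and Lhx1 ran from 169 (AS-saline-40) to 699 (AS-DEX-42). Their r was 0.52 (permutation p = 0.040, rho = 0.59, permutation p = 0.019), 0.68 without the 2 farthest libraries and 0.50 after group means were removed, and 167 genes were more correlated with Lhx1os than Lhx1 was. Leaving out 1 library took r to between 0.45 and 0.67, and the permutation p was then above 0.05 without control-DEX-116, control-DEX-122, PS-saline-68, PS-DEX-6, AS-saline-8, AS-DEX-38 or AS-DEX-42.

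Phf2os1 (chr13:48871112-48875460, plus strand), head to head with the histone demethylase gene Phf2, had r = 0.58 (permutation p = 0.015, rho = 0.40, permutation p = 0.13), with r = 0.44 without AS-saline-40, 0.31 without that library and control-saline-104, and 0.72 after group means were removed. Leaving out 1 library took its r to between 0.44 and 0.65. With Phf2os1, 9.07% of all genes had a higher r than Phf2. The correlation of Ino80dos rested on 1 library. Ino80dos (chr1:63113078-63158290, plus strand), head to head with Ino80d, a subunit gene of the INO80 chromatin remodeler, had r = 0.63 (permutation p = 0.027) but a rho of 0.14 (permutation p = 0.60). Both genes of that pair had their lowest value in control-saline-104 (114.04 and 735 normalized counts), and without it r was 0.05. With Ino80dos, 4.33% of all genes had a higher r than Ino80d over the 16 libraries.

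**Figure D3:**
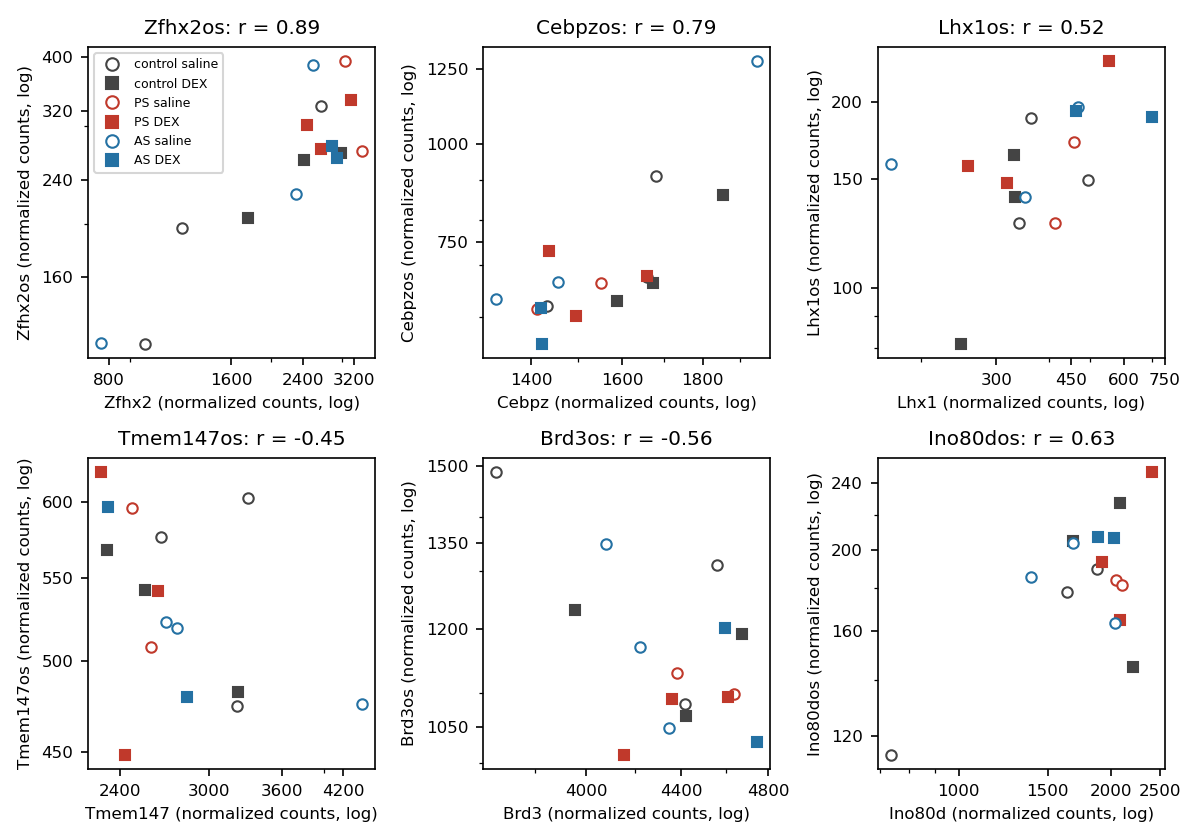
Normalized counts of partner (x axis, log) and transcript (y axis, log) in 16 libraries for 6 pairs; gray is control, red PS and blue AS, with open circles for saline and filled squares for DEX. Zfhx2os and Cebpzos rise with their partners over most libraries, whereas Ino80dos does so mainly through the control saline library at 735 counts of Ino80d.

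The 5 lowest correlations belonged to Brd3os, Zfp652os, Slc7a6os, Tmem147os and B9d1os, and 4 of these pairs have no exon overlap. Brd3os, tail to tail with Brd3, a bromodomain protein gene of the BET family, had r = -0.56 (permutation p = 0.023, rho = -0.29, permutation p = 0.27). Control-saline-104 held the highest Brd3os (1488) and the lowest Brd3 (3653), and without it r was -0.24, or -0.04 without AS-saline-40 as well. Slc7a6os, whose protein helps to import RNA polymerase II into the nucleus, lies tail to tail with the amino acid transporter gene Slc7a6 and had r = -0.46 (permutation p = 0.075, rho = -0.44, permutation p = 0.092). Its r was -0.12 without control-saline-104, 0.19 without that library and AS-saline-40, and -0.78 without AS-saline-14. Tmem147os had r = -0.45 (permutation p = 0.074, rho = -0.44, permutation p = 0.087), which was -0.37 without AS-saline-40, the library with the highest Tmem147 (4405), -0.60 without control-saline-114, -0.62 without PS-DEX-6 and -0.50 after group means were removed. B9d1os (chr11:61504386-61505059, minus strand) starts 85 bases from B9d1, a gene of the ciliary transition zone, and had r = -0.45 (permutation p = 0.080, rho = -0.29, permutation p = 0.28). Its r was -0.24 without AS-saline-40, -0.60 without PS-DEX-64 and -0.66 after group means were removed. It is measured less precisely than the others: its mean was 22.7 normalized counts, and 3 libraries had under 10 reads. Zfp652os had r = -0.48 (permutation p = 0.056, rho = -0.42, permutation p = 0.10), -0.24 without control-saline-104 and 0.00 after group means were removed.

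No opposite-strand transcript or partner was called with DEX. In the limma fit over all genes, none of the 39 transcripts and none of the 39 partners was called in DEX against saline averaged over control, PS and AS (adjusted p under 0.1), where 4.31% of all genes were called, and 2 transcripts and 3 partners had an unadjusted p under 0.05 as 2033 of all 14504 genes did. DESeq2 and edgeR, run on the whole reads behind the values, likewise called 0 of the 78 members in that comparison while calling 904 and 622 genes. The median log2 change was -0.01 over the transcripts, 0.04 over the partners and 0.00 over all genes. The standard error was larger for transcripts, with a median of 0.18 against 0.09 for partners and 0.10 for all genes. Within control, PS and AS mice, 0 members were called beside 1.26%, 0.703% and 0.689% of all genes, and 6, 1 and 5 of the 78 members had an unadjusted p under 0.05, as did 12.1%, 4.69% and 9.36% of all genes. In the averaged comparison 1.78% of all long noncoding genes were called, and 4.81% of protein coding genes.

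**Figure D4:**
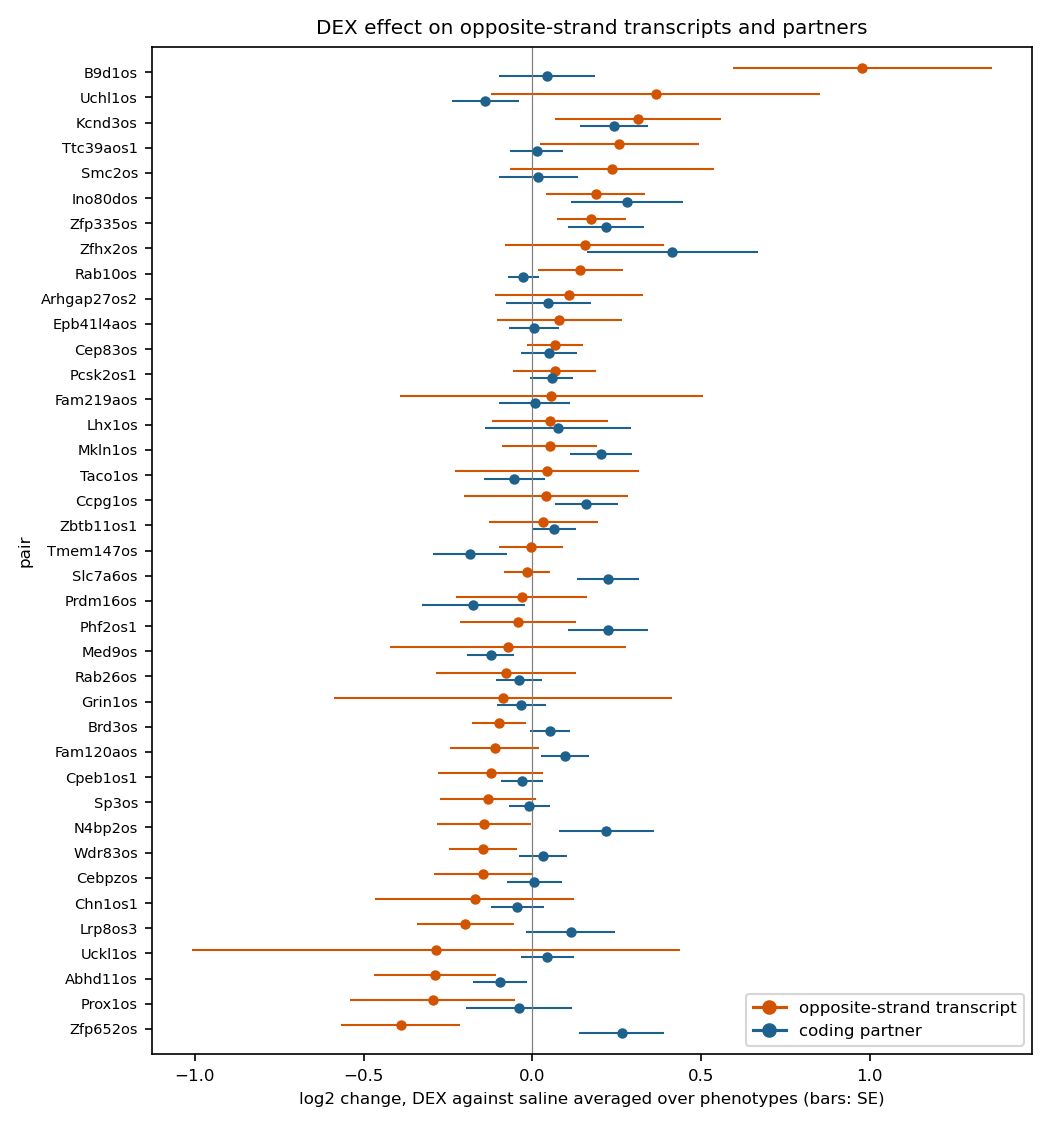
Log2 change in DEX against saline averaged over the 3 phenotypes for each transcript (orange) and partner (blue), with bars of 1 SE from the limma fit over 16 libraries. B9d1os at 0.98 is the highest and Zfp652os at -0.39 the lowest transcript, and neither was called.

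B9d1os had the largest estimate, a log2 change of 0.98 ± 0.38 (SE) with an adjusted p of 0.27 in limma. It had 14.9, 10.2 and 7.38 normalized counts in control saline against 19.8, 37.8 and 22.9 in control DEX. In PS it had 6.82 and 23.8 with saline against 16.3, 33.9 and 30.6 with DEX. In AS it had 33.7, 29.9 and 6.41 with saline against 24.2 and 44.3 with DEX. The arms separated in control and overlapped in PS and AS. Among partners, Slc7a6 changed by 0.22 ± 0.09 (log2, SE; limma adjusted p = 0.29), Kcnd3, a gene for a voltage-gated potassium channel, by 0.24 ± 0.10 (limma adjusted p = 0.30) and Mkln1, which codes for muskelin, a subunit of a ubiquitin ligase, by 0.20 ± 0.09 (limma adjusted p = 0.34). Mkln1 was called with limma array weights (adjusted p = 0.081) and Kcnd3 without AS-saline-8 (limma adjusted p = 0.096), and neither was called in this comparison under any other alternative.

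The ratio of transcript to partner was then tested in each of the 39 pairs by an exact two-sided permutation of the treatment labels within phenotypes (2000 arrangements). Only Zfp652os against Zfp652, a zinc finger repressor gene, passed an unadjusted p of 0.05. The log2 ratio was lower with DEX by 0.66 ± 0.19 (SE; exact permutation p = 0.003), with differences of -1.17 in control, -0.33 in PS and -0.47 in AS. Left-out libraries moved the estimate between -0.75 and -0.56, and the exact permutation p stayed under 0.05 in each case and under the other settings tried. The p is not adjusted for the 39 tests.

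Zfp652os (chr11:95700106-95712754, minus strand) is a long noncoding RNA head to head with Zfp652, and 11.4% of its exon length lies on Zfp652 exons. It had 64.4, 61.1 and 59.0 normalized counts in control saline against 30.2, 41.5 and 32.2 in control DEX. In PS it had 29.2 and 46.5 with saline and 27.2, 32.7 and 41.2 with DEX, and in AS 32.3, 37.9 and 42.1 with saline and 29.3 and 35.4 with DEX. The 3 control saline libraries lay above all 13 others, which reached 46.5. For Zfp652 the control saline libraries had 2506, 1454 and 2731 and overlapped the others (2045 to 3594). Neither gene was called by itself in limma: Zfp652os changed by -0.39 ± 0.18 (log2, SE; adjusted p = 0.34) and Zfp652 by 0.26 ± 0.12 (adjusted p = 0.36) in the averaged comparison. Against control saline, Zfp652os differed by -0.72 ± 0.31 in PS saline (limma adjusted p = 0.57) and by -0.71 ± 0.28 in AS saline (log2, SE; limma adjusted p = 0.998).

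The next smallest values did not pass. The log2 ratio of Slc7a6os to Slc7a6 changed by -0.24 ± 0.13 (SE; exact permutation p = 0.063), that of Phf2os1 by -0.27 ± 0.12 (exact permutation p = 0.074), that of Wdr83os by -0.18 ± 0.10 (exact permutation p = 0.077) and that of N4bp2os by -0.36 ± 0.18 (exact permutation p = 0.079). For N4bp2os, beside N4bp2, a gene for a BCL3-binding protein with nuclease activity, the difference was largest in control mice: 145, 130 and 113 normalized counts with saline against 73.2, 72.9 and 91.7 with DEX. Its log2 ratio changed by -0.97 in control, -0.15 in PS and 0.02 in AS. N4bp2os itself changed by -0.70 ± 0.22 (log2, SE) in control mice with a limma adjusted p of 0.23, and the difference of this change between AS and control was 0.96 ± 0.33 (limma adjusted p = 0.94).

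Chronic stress gave no call either. In saline mice, 0 of the 78 members were called in PS against control, AS against control or AS against PS, where 0% of all genes were called in limma, and 8, 5 and 1 members had an unadjusted p under 0.05, as did 7.67%, 2.39% and 3.41% of all genes. DESeq2 called 1 member, Chn1os1, among 11 genes in AS against control and 0 members in the other two, and edgeR called 0 in all 3. For the 3 differences of the DEX effect between phenotypes, 0 members and 0% of all genes were called in limma, DESeq2 and edgeR called 0 members, and 3, 2 and 1 members had an unadjusted p under 0.05, as did 2.10%, 4.02% and 2.90% of all genes.

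Chn1os1 (chr2:73658270-73660263, plus strand), a long noncoding RNA inside Chn1, had the smallest p of all 14504 genes in AS against control saline. It had 29.7, 81.5 and 104.2 normalized counts in control saline, 21.4 and 16.2 in PS saline and 16.1, 11.5 and 10.98 in AS saline. With DEX it had 54.6, 46.1 and 38.2 in control, 33.7, 12.1 and 20.1 in PS and 9.09 and 13.8 in AS. The 6 control libraries (29.7 to 104.2) thus overlapped the 10 libraries of stressed mice (9.09 to 33.7) only through PS-DEX-6. In limma Chn1os1 was lower in AS than in control saline by a log2 change of -2.23 ± 0.47 (SE) with an adjusted p of 0.998, and in PS by -1.71 ± 0.53 (SE) with an adjusted p of 0.57. DESeq2 gave an adjusted p of 0.012 for AS, edgeR gave 1, and limma without control-saline-102 gave 0.047. Chn1 showed no like pattern: it had 9850, 10550 and 10615 in control saline against 8780 and 10082 in PS saline and 9389, 9382 and 12474 in AS saline. Of the exon length of Chn1os1, 83.8% lies on exons of this far more abundant partner. The part of Chn1 reads in the counts of Chn1os1 was not tested.

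Chn1os1 did not vary alone. Chosen after their values were seen, Chn1os1, Grin1os, Uchl1os and Fam219aos, the 4 transcripts scarcest relative to their partners, correlated with one another at 0.68 to 0.83 over the 16 libraries, whereas their partners had values from -0.59 to 0.69. Uchl1os had 22.8, 207 and 206 normalized counts in control-saline-102, control-saline-104 and control-saline-114, and 8.04 to 123 elsewhere. Grin1os had 27.7, 198 and 278 in the same 3 libraries and 11.1 to 234 elsewhere, with 234 in control-DEX-101. Fam219aos had 24.8, 81.5 and 115 there and 4.40 to 54.3 elsewhere. Without control-saline-104 and control-saline-114 the 6 correlations were 0.42 to 0.72. For Chn1os1, Grin1os, Uchl1os and Fam219aos, 83.8%, 45.2%, 13.5% and 66.2% of the exon length lies on exons of the partner. The part of partner reads in their counts was not tested. In limma, Fam219aos was lower in AS than in control saline by a log2 change of -2.62 ± 0.72 (SE; adjusted p = 0.998) and Uchl1os by -2.16 ± 0.78 (SE; adjusted p = 0.998).

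A second group varied with markers of a cell type. Uckl1os, Ccpg1os and Med9os, also picked after their values were seen, varied with the 9 listed markers of ependymal cells, the ciliated cells that line the ventricles. All 9 markers were in the table and none was at 0 in any library. Their summed level ran from 1440 normalized counts in PS-DEX-6 to 17683 in PS-DEX-64, and the 6 groups overlapped: 3458 to 6910 in control saline, 2099 to 9400 in control DEX, 3404 to 8340 in PS saline, 1440 to 17683 in PS DEX, 4411 to 11565 in AS saline and 2952 to 10997 in AS DEX. In bulk tissue, more cells of a type and more RNA per cell cannot be told apart.

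Uckl1os (chr2:181578480-181585170, plus strand) had 9.78 normalized counts in PS-DEX-6 and 337 in PS-DEX-64, and its r with the mean log2 score of the markers was 0.92. Ccpg1os (chr9:72979722-72985382, minus strand) had 117.3 and 350 in the same libraries (r = 0.91), and Med9os (chr11:59946889-59948142, minus strand) had 22.8 and 101.4 (r = 0.86). Without these 2 libraries the values were 0.87, 0.88 and 0.82. The same 3 transcripts had r of -0.70, -0.84 and -0.78 with the score of GABA neuron markers, -0.38, -0.65 and -0.62 with that of glutamate neurons, 0.39, 0.73 and 0.54 with that of choroid plexus and 0.40, 0.59 and 0.54 with that of astrocytes. The part of each cell type was not tested. An r above 0.8 with the score occurred in 3 of 39 transcripts, 0 of 39 partners and 2.36% of all genes. The partners Uckl1, a uridine-cytidine kinase family gene, Ccpg1, which codes for an ER-phagy receptor, and Med9, a Mediator subunit gene, had r of 0.13, 0.25 and -0.07 with the score. Ccpg1os and Ccpg1 share 227 bases of promoter window (printed above), yet Ccpg1 ran only from 413 to 747. Genes with a pattern like that of Ccpg1os included 1110017D15Rik (r = 0.97) and Cfap45 (r = 0.95), which codes for a cilium-associated protein. Uckl1os was most like Gm21149 (r = 0.97) and Maats1 (r = 0.96).

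**Figure D5:**
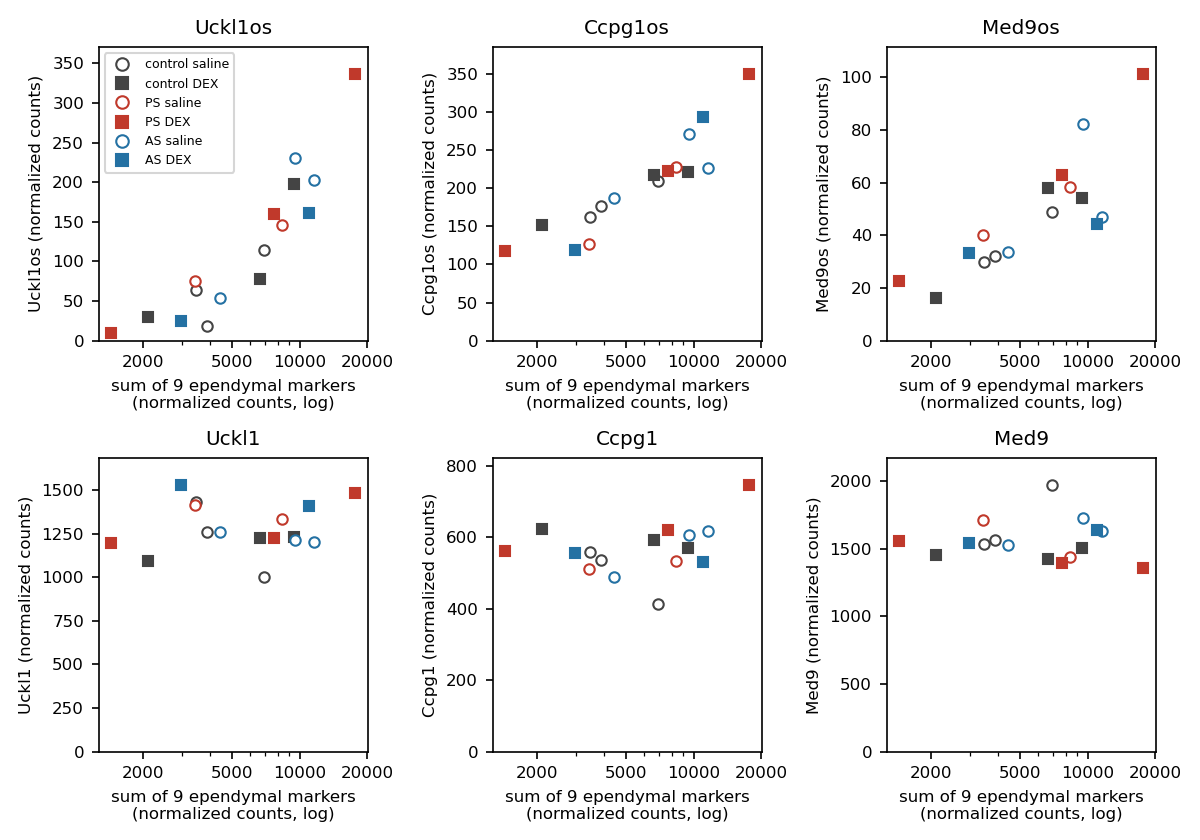
Normalized counts of Uckl1os, Ccpg1os and Med9os (top) and of their partners (bottom) against the summed level of 9 ependymal markers (x axis, log), 16 libraries; gray is control, red PS and blue AS, with open circles for saline and filled squares for DEX. The transcripts rise from 9.78, 117.3 and 22.8 in PS-DEX-6 to 337, 350 and 101.4 in PS-DEX-64, and the partners have r of 0.13, 0.25 and -0.07 with the marker score.

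Transcripts also varied against each other. Over the 741 pairs among the 39 transcripts the median r was 0.02. Of these pairs 16 were above 0.7 and 4 below -0.7, or 14 and 5 without AS-saline-40 and control-saline-104. The share of all gene pairs beyond these values was not computed, so whether these counts are unusual was not tested. The lowest was Cebpzos with Rab10os, a long noncoding RNA tail to tail with the vesicle traffic gene Rab10 (r = -0.90). Both had their extreme value in AS-saline-40 (1279 and 1153 normalized counts), and r was -0.73 without AS-saline-40 and control-saline-104. Phf2os1 and Zfhx2os, on chromosomes 13 and 14, had r = 0.81, and Ino80dos and Kcnd3os, on chromosomes 1 and 3, had 0.79. Without the same 2 libraries these were 0.69 and 0.71.

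The remaining pairs had r between -0.39 and 0.48 and no call in the limma fit over all 16 libraries. They were Abhd11os, Arhgap27os2, Cep83os, Cpeb1os1, Epb41l4aos, Fam120aos, Kcnd3os, Lrp8os3, Mkln1os, Pcsk2os1, Prdm16os, Prox1os, Rab10os, Rab26os, Smc2os, Sp3os, Taco1os, Zbtb11os1 and Zfp335os with the partners of the same name. Several partners are developmental transcription factor genes, such as Prox1 (r = 0.41 with Prox1os) and Prdm16 (r = 0.16 with Prdm16os). The r of Prdm16os was 0.03 without AS-saline-40 and 0.32 without control-saline-102. Sp3os, head to head with the gene of the ubiquitous factor Sp3, had r = 0.43 (permutation p = 0.092) and a rho of 0.65 (permutation p = 0.0077). Rab26os, inside the vesicle gene Rab26 but without exon overlap, had r = 0.48 (permutation p = 0.061). Smc2os, beside the condensin gene Smc2, had r = 0.43 (permutation p = 0.097). Its r was 0.20 without control-saline-104 and 0.59 without control-saline-114. Fam120aos had r = -0.39 (permutation p = 0.13), which was -0.20 without AS-saline-40 and -0.73 without PS-DEX-64.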

How the data were processed

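PolyA RNA of DRN punches was sequenced in 16 libraries. Per the study's methods and processing notes, fastp (v0.20.1) was used for trimming, HISAT2 (v2.2.1) for alignment to mm10 (GRCm38), featureCounts of Subread 2.0 for gene counts on GENCODE vM22, and DESeq2 (v1.36.0) for the size factors the authors divided by. The values analyzed are that deposited signal, the normalized counts, and gene positions, classes and strands come from a deposited table of comparisons, whose fold changes and p-values were not used. Multiplied by the recovered size factor, 100% of values came out whole (tolerance 0.01) in all 16 libraries.

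Groups followed the labels. The main test was limma v3.58.1 with eBayes and a mean-variance trend on log2(normalized count + 1), with 6 group means over 16 libraries (10 residual degrees of freedom), Benjamini-Hochberg adjustment over 14504 genes in each contrast and a call at an adjusted p under 0.1. Fold changes on this scale understate changes of low genes. DESeq2 v1.42.0 and edgeR v4.0.16 on the recovered reads, pseudocounts 0.1 and 10, a mean of at least 100, TMM scaling, array weights, the compared groups alone and leaving out each library were alternatives. Leaving out AS saline 40 and control saline 104 together was added after seeing the data. In simulated data on 14504 genes, limma called 67 of 100 genes changed 1.5-fold and 96 of 100 changed 2-fold in the averaged DEX comparison. Of its calls, 7.91% were false. The changed genes were drawn from the whole table above a minimum mean count and changed alike in all phenotypes. Recovery at the levels of the members was not tested.

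Ratios were tested by exact permutation within phenotypes. Correlations were tested by permutation over all 16 libraries, without regard to group, with 100000 resamples. Exon lengths and overlaps came from GENCODE vM21 and promoter windows from RefSeq (GRCm38.p6). Scripts used R 4.3.3 and Python 3.11.15. The pairs described in depth were those with the 5 highest and 5 lowest r among transcripts with a mean of at least 10, the 5 highest levels per kb and the 5 smallest p of the ratio, since no pair had a call; others are named as chosen after their values were seen. The members, marker lists and tests were chosen with earlier results of these data known. The study's methods call the libraries biological replicates. Interactions of DEX and phenotype and stress comparisons in saline mice used the same model. Some of the genes most like a transcript are not reported here.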

Additional observations from a re-analysis of the deposited data

How the results depend on the processing

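The counts of called members stayed at 0 under every alternative but these. With limma array weights 1 partner was called in the averaged DEX comparison (Mkln1), 1 member in DEX against saline in PS (Zfp335os) and 4 in AS (Lhx1, Sp3, Ttc39a and Uckl1). DESeq2 called 1 in AS against control saline (Chn1os1). Leaving out each library gave 0 to 1 partner in the averaged DEX comparison (Kcnd3 without AS-saline-8), 0 to 1 member in DEX against saline in control (Mkln1 without control-saline-102), 0 to 1 in AS against control saline (Chn1os1 without control-saline-102) and 0 elsewhere. The ratio passed an unadjusted 0.05 in 1 to 3 pairs and the correlation in 5 to 9 pairs when libraries were left out, against 1 and 6 with all. The Pearson r of Slc7a6os with Slc7a6 turned from -0.46 to 0.19 without AS-saline-40 and control-saline-104. The cause of these changes was not tested. Over all genes, array weights raised the calls from 625 to 1328 in the averaged DEX comparison, to 529 in PS and to 1402 in AS, where 0.703% and 0.689% of the 14504 genes were called without weights. DESeq2 called 437, 187 and 274 genes with DEX in control, PS and AS, where limma called 1.26%, 0.703% and 0.689% of the genes, and a limma fit of the compared groups alone called 62, 56 and 6. In saline mice, where limma called 0 genes, DESeq2 called 4 in PS and 11 in AS against control and 1 in AS against PS. No paired analysis was possible because the replicate numbers differ between the groups. PS saline and AS DEX had 2 libraries each, and 12 transcripts had a mean under 100 normalized counts; how many changes at those levels the test would find was not tested.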

Other observations

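Beyond the pairs, 8 further symbols end in os after a gene that is annotated but not in the table, and 6 end in ot or as after a symbol of the table. Of the latter, Hras, Leprot and Vipas39 are protein coding genes whose names only fit the pattern. The smallest adjusted p among the 14 in DEX against saline averaged over phenotypes was that of Sox2ot, the long noncoding RNA that spans the stem cell factor gene Sox2, with a mean of 895 normalized counts and a log2 change of -0.60 (limma adjusted p = 0.10023). Prox2os had a mean of 170 normalized counts and a change of 0.72 (limma adjusted p = 0.29), and Brip1os a mean of 734 and a change of -0.25 (limma adjusted p = 0.23). Sox1ot, with a mean of 3061, changed by 0.05 (limma adjusted p = 0.84).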
